A study of Mus musculus with 6 samples.

Results

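The genes described here move bicarbonate and interconvert it with carbon dioxide, and they were measured by RNA sequencing in 6 mouse primary cancer cell lines. There are 8 of them among the 55401 genes in the files: the bicarbonate transporter genes Slc4a2, Slc4a3, Slc4a4 and Slc4a7 and the carbonic anhydrase genes Car2, Car9, Car12 and Car13. They were picked by name, as regulators of pH, because Slc4a3 had separated the lines of the study's 2 groups. The difference between the groups was therefore used in choosing them, and for these 8 genes it is given as a description from which nothing is inferred.

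Each line was cultured from a primary tumour of a C57BL/6 mouse. The hosts of 3 lines (replicates 2, 4 and 6) carry the genotype label WT and those of the other 3 (replicates 1, 3 and 7) the label Rag1KO. Rag1 is needed to assemble antigen receptors, so mice that lack it have no mature T or B cells, and the design compares tumour cells grown in immunocompetent and immunocompromised mice. Tumours were minced and digested with collagenase, dispase and trypsin, and the cells were kept in culture in DMEM containing serum. Per-line values below are in the order WT replicates 2, 4 and 6 and Rag1KO replicates 1, 3 and 7. The labels give no tumour type, sex, age or treatment, and do not say whether each line came from its own animal, so the spread between lines may in part be technical.

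Cells make acid as they metabolise, and bicarbonate is their main mobile buffer. Slc4a2 and Slc4a3 encode the anion exchangers AE2 and AE3, which swap intracellular bicarbonate for chloride and so load the cell with acid. Slc4a4 and Slc4a7 encode the sodium-bicarbonate cotransporters NBCe1 and NBCn1, which in most cells bring bicarbonate in and raise intracellular pH. Carbonic anhydrases catalyse the hydration of carbon dioxide: Car2 and Car13 encode enzymes of the cytosol, while Car9 and Car12 encode enzymes anchored in the plasma membrane with the active site outside, of which Car9 is a classic target of the hypoxia-inducible factor HIF.

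The libraries held 55409583 to 62998051 reads, and values are normalized counts, that is reads divided by 1 size factor per library. Rag1 stood at 39.3, 126 and 177 normalized counts in Rag1KO replicates 1, 3 and 7 and at 0 reads in all 3 lines labelled WT, which goes against a plain reading of the labels, so groups are named by label throughout. The Y-linked gene Kdm5d was read at 1161 to 1747 normalized counts in the lines labelled Rag1KO and at 1994 in WT replicate 6, and had 0 reads in WT replicates 2 and 4. Uty and Ddx3y, also Y-linked, had this pattern, at 1196 and 4345 in WT replicate 6 and 2.01 or less in WT replicates 2 and 4. The Y-linked gene Eif2s3y followed the labels instead, with 0 reads in all 3 lines labelled WT and 1438 to 2944 normalized counts in those labelled Rag1KO. Xist, transcribed from the inactive X, reached 59776 normalized counts in WT replicate 2 and 32733 in WT replicate 4, against 15.3 or less in the other 4 lines. WT replicate 6 stood apart in other ways: the collagen gene Col1a1 was at 206 normalized counts there and at 478322 to 1051710 in the other 5 lines. A primary cancer cell line has no defining marker to check. Of 7 fibroblast markers 7 passed 1000 normalized counts in some line. Lum did so only in WT replicate 4, at 2478 against 78.3 or less elsewhere, and Dcn fell to 197 in Rag1KO replicate 3. Summed levels were 303317 to 1767600 in lines labelled WT and 1072580 to 1955980 in lines labelled Rag1KO, mostly from Col1a1, Col1a2 and Col3a1. Of 9 leukocyte markers 3 were at 0 in all lines, with sums of 80.6 to 313 and 169 to 466, and Ptprc, the pan-leukocyte antigen, reached at most 3.83. Of 7 red cell precursor markers 2 were at 0 throughout, with sums of 10.6 to 78.6 and 13.6 to 19.7, and of 7 osteoclast markers 2 were at 0, with sums of 3317 to 7559 and 3386 to 12248 that came mostly from Ctsk and Itgb3. Of 6 epithelial markers Epcam was at 0 throughout, with sums of 10.6 to 4856 and 1751 to 6323 that came mostly from Krt19 except in WT replicate 6, where Krt19 had 1 read, and 5 endothelial markers summed to 27.3 to 1009.98 and 212 to 1483. The part of these differences in the results below was not tested, and in such bulk RNA fewer cells of a type and less RNA per cell cannot be told apart.

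Levels of different genes were compared per kilobase of merged exons. In this unit Slc4a2 was the highest of the 8 genes (1198 ± 220 normalized counts per kilobase, SD over the 6 lines), followed by Car13 (859 ± 391). The ranges of these leading genes overlapped, and in WT replicate 6 and Rag1KO replicate 7 the level per kilobase of Car13 exceeded that of Slc4a2. This depended on the length used. Per length of the longest transcript, Slc4a2 averaged 2339 normalized counts per kilobase, and its range (1584 to 2912) lay above that of Car13 (335 to 1453). Slc4a3 (169 ± 83.2) and Slc4a7 (154 ± 68.9) came next and did not differ beyond their spread. Slc4a4 followed at 34.6 ± 33.4 normalized counts per kilobase, and Car9 (8.11 ± 4.33), Car12 (3.07 ± 1.60) and Car2 (1.71 ± 1.71) were the lowest. The Slc4a4 range (0 to 75.2) lay below those of Slc4a3 (82.5 to 265) and Slc4a7 (85.7 to 276), while the ranges of Car9, Car12 and Car2 overlapped. Per length of the longest transcript, the ranges of Slc4a4 (0 to 102.5) and Slc4a3 (98.8 to 317) overlapped. Among all 16137 genes tested, the mean level per kilobase of Slc4a2 lay at percentile 83.5 and that of Car13 at 77.6, against 6.15 for Car9 and 1.20 for Car12.

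**Figure D1:**
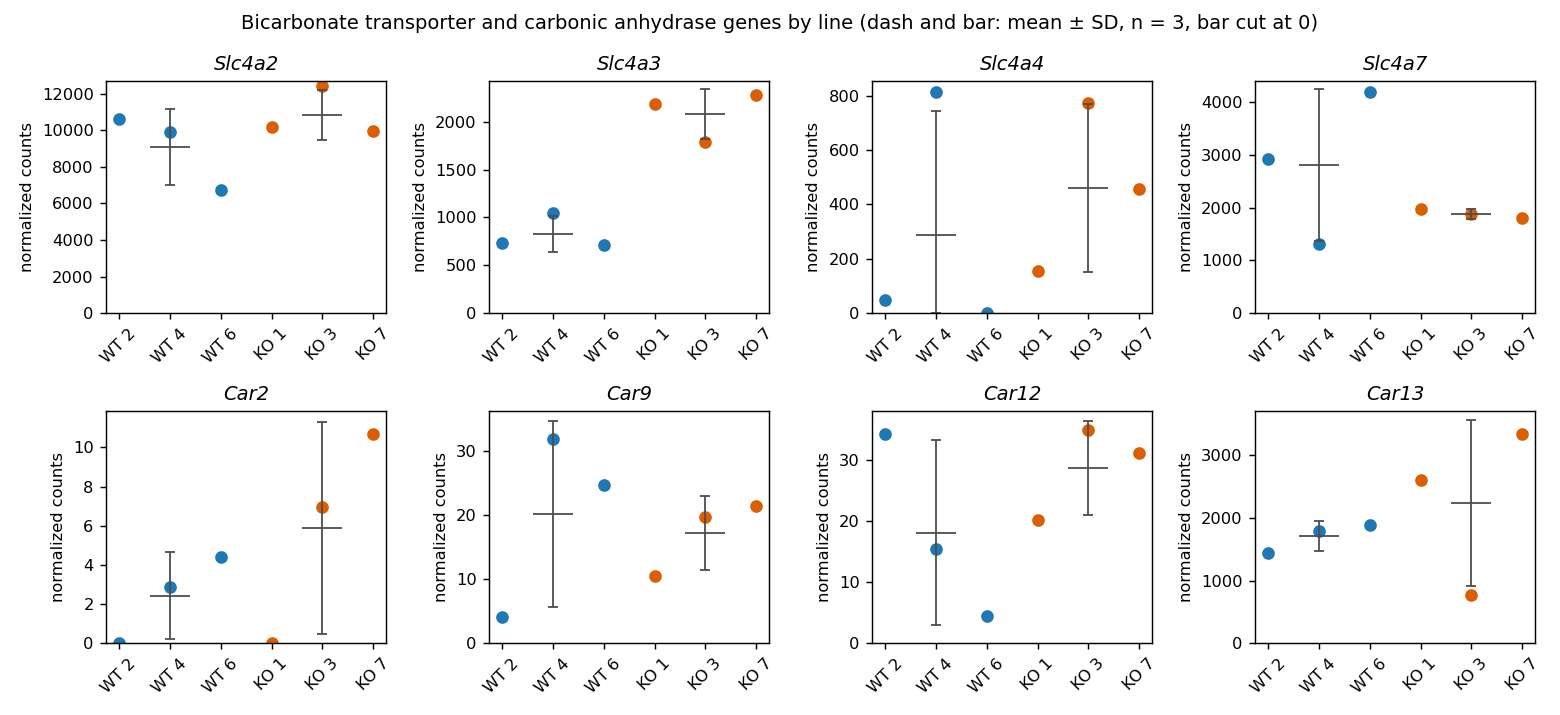
Normalized counts (linear axis from 0, a separate scale for each gene) of the 8 genes in each line, blue for lines labelled WT and orange for lines labelled Rag1KO (KO), with the mean ± SD of each group (n = 3). Slc4a3 is the gene whose groups do not overlap, and Car2, Car9 and Car12 stay below 35 normalized counts in every line.

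Among the anion exchangers, Slc4a2 (ENSMUSG00000028962.14, chr5:24423837-24440950, plus strand, mm10) was read at 10621.5, 9918 and 6754 normalized counts in the WT-labelled lines and at 10192.5, 12415 and 9942 in the Rag1KO-labelled lines. The groups overlapped, and WT replicate 6 was the lowest line. Group means were 9098 ± 2060.4 and 10849.7 ± 1362 normalized counts (SD, n = 3), a log2 difference (of value + 1, WT less Rag1KO, here and below) of −0.27 with an SE of 0.23. Leaving out 1 line gave −0.40 (WT replicate 2) to −0.07 (WT replicate 6). Exons of Slc4a2 overlap those of Fastk on the other strand, which was read at 2089 to 3800 normalized counts, and though the library kit marks strand, whether the counting used it is not given in the sources used here. Reads of the 2 genes may therefore not be cleanly divided.

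Slc4a3 (ENSMUSG00000006576.16, chr1:75546266-75562172, plus strand, mm10), best known from heart and brain, was the gene that led to this choice. The WT-labelled lines had 735, 1042 and 709 normalized counts, from 730, 1079 and 806 reads. The Rag1KO-labelled lines had 2181, 1789 and 2276 normalized counts, from 2276, 1544 and 2349 reads. Every line labelled Rag1KO lay above every line labelled WT, and the lowest of the former was well clear of WT replicate 4, the highest of the latter. The means were 829 ± 185 and 2082 ± 258 normalized counts (SD, n = 3), a ratio of 2.51 in favour of Rag1KO, and the log2 difference was −1.34 with an SE of 0.23. Leaving out each line in turn gave −1.52 to −1.24. Sex-linked genes moved with the labels in part: Eif2s3y separated the same groups in the same direction as Slc4a3. Kdm5d, Uty, Ddx3y and Xist instead set WT replicates 2 and 4 apart from the rest. The part of sex-linked genes in the Slc4a3 difference was not tested.

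The region before the start of Slc4a3 is shown because this gene carries the difference between the groups, and that of Car9 because its neighbourhood holds the short core motif bound by HIF. The motif searched was ACGTG or GCGTG on either strand, so CACGT and CACGC also count, and ACGTG is also the end of the E-box CACGTG. Windows run from 250 bases before to 50 bases after each RefSeq gene start (GRCm38.p6). Of the 8 genes 6 had windows, 8 in all, and 4 of these held a match, as did 43.8% of 32851 windows of the same length. Capitals mark the match, and each stretch is 30 bases of the plus strand, the first at chr1:75546287-75546316, the second at chr1:75546353-75546382 and the third at chr4:43506996-43507025.
Slc4a3, match 163 bases before the start: cccccccgcaatGCGTGgggcgcctggaga
Slc4a3, match 97 bases before the start: gagcgcggggccCACGCtggcctggtcggg
Car9, match 18 bases before the start: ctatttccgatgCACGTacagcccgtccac
All 3 stretches lie inside the genes as GENCODE M21 annotates them, with starts at 75546266 for Slc4a3 and 43506966 for Car9. The Car9 window holds 1 match. Slc4a2 and Slc4a4 each had a window with a match too, of the form CACGC, and another window with none. The windows of Car12 and Slc4a7 hold no match. A match is a string of letters and not evidence of binding.

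AE3 stayed the minor anion exchanger RNA in all lines. Of the summed level per kilobase of Slc4a1, Slc4a2 and Slc4a3, Slc4a3 made up 6.28%, 9.23% and 9.22% in the WT-labelled lines and 17.2%, 12.2% and 18.1% in the Rag1KO-labelled lines. Slc4a1, the red cell exchanger AE1, had at most 2 reads in any library. Within the whole Slc4 family Slc4a2 took 60.6% to 76.9% of the summed level per kilobase and Slc4a3 took 5.15% to 15.6%. These shares depended on the length used. Per length of the longest transcript, Slc4a2 took 64.4% to 81.8% of the family and Slc4a3 3.29% to 10.5%.

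**Figure D2:**
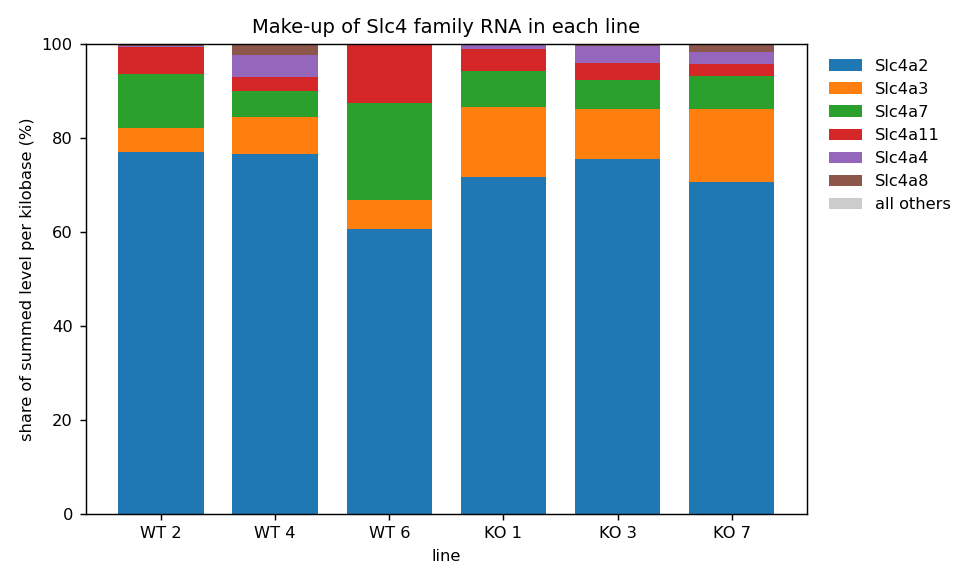
Share (%) of each gene in the summed level per kilobase of the 10 Slc4 genes listed, one stacked bar per line (KO, Rag1KO), with Slc4a1, Slc4a5, Slc4a9 and Slc4a10 pooled as all others. Slc4a2 forms 60.6% to 76.9% of every bar, and the Slc4a3 band is 5.15% to 7.80% in lines labelled WT and 10.5% to 15.6% in lines labelled Rag1KO.

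The sodium-bicarbonate cotransporters varied more between single lines than between the groups. Slc4a7 (ENSMUSG00000021733.11, chr14:14702279-14799940, plus strand) was read at 2927, 1303 and 4191 normalized counts in the WT-labelled lines and at 1974, 1878 and 1797 in the Rag1KO-labelled lines. The lines labelled WT bracketed the others, with WT replicate 4 the lowest and WT replicate 6 the highest of the 6, while the lines labelled Rag1KO were nearly level. The means were 2807 ± 1448 and 1883 ± 88.6 normalized counts (SD, n = 3), a log2 difference of 0.42 with an SE of 0.43. It was 0.05 without WT replicate 6 and 0.90 without WT replicate 4.

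Slc4a4 (ENSMUSG00000060961.16, chr5:88886818-89239653, plus strand) differed widely from line to line, down to no reads. It was at 47.3, 813 and 0 normalized counts in the WT-labelled lines and at 154, 772 and 457 in the Rag1KO-labelled lines. WT replicate 4 was the highest line of all and WT replicate 6 had 0 reads, which allows up to 2.64 normalized counts for counting error alone. The log2 difference of −3.48 (SE 2.38) depended on single lines, being −0.94 without WT replicate 6 and −5.77 without WT replicate 4. It was −4.60 with a pseudocount of 0.1 and −0.69 in edgeR and DESeq2. For Slc4a4 and Slc4a7 the identifier in the files has another version than in GENCODE M21, so their coordinates and lengths are those of a slightly different gene model.

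Of the carbonic anhydrases, only Car13 among the 4 was well expressed. Car13 (ENSMUSG00000027555.8, chr3:14641727-14663002, plus strand) was read at 1439, 1802 and 1887 normalized counts in the WT-labelled lines and at 2614, 771 and 3340.3 in the Rag1KO-labelled lines. The lines labelled WT lay close together inside the range of the others, whose replicate 3 was the lowest and replicate 7 the highest of the 6. The means were 1709 ± 238 and 2242 ± 1325 normalized counts (SD, n = 3), a log2 difference of −0.15 with an SE of 0.56 that moved to −0.80 without Rag1KO replicate 3 and to 0.26 without Rag1KO replicate 7. Car13 lies in a cluster of cytosolic isozyme genes on chromosome 3, where Car13, Car1, Car3 and Car2 fall within 259 kilobases. Of these neighbours Car1 had 0 reads in all 6 libraries, Car3 stayed at or below 42.5 normalized counts and Car2 at or below 10.7.

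Car2 (ENSMUSG00000027562.12, chr3:14886273-14900770, plus strand), the widespread high-activity isozyme, had 0, 3 and 5 reads in the WT-labelled lines and 0, 6 and 11 reads in the Rag1KO-labelled lines. It was the 1 gene of the 8 that did not pass the filter on low counts, and no fold is given for it. Car9 (ENSMUSG00000028463.14, chr4:43506966-43513729, plus strand) was at 4.03, 31.9 and 24.6 normalized counts in the lines labelled WT and at 10.5, 19.7 and 21.3 in the lines labelled Rag1KO. The groups overlapped fully, both extremes being lines labelled WT, and the log2 difference of −0.11 (SE 0.85) ran from −0.62 without WT replicate 4 to 0.73 without WT replicate 2. Car9 exons overlap the antisense gene Gm12454, which was read at 29.0 to 73.6 normalized counts in 5 lines and at 198 in Rag1KO replicate 3, so part of the few Car9 reads may belong to the other strand. Car12 (ENSMUSG00000032373.15, chr9:66713686-66766845, plus strand) was at 34.2, 15.4 and 4.40 normalized counts in the lines labelled WT and at 20.1, 34.8 and 31.0 in the lines labelled Rag1KO. WT replicate 6 was again the lowest, the groups overlapped, and the log2 difference of −0.98 (SE 0.79) was −0.26 without WT replicate 6 and −1.62 without WT replicate 2.

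Which carbonic anhydrase RNA dominated differed from line to line. Over 16 family genes, Car13 took 18.5%, 60.0% and 36.8% of the summed level per kilobase in the WT-labelled lines and 47.9%, 18.2% and 68.4% in the Rag1KO-labelled lines. Car8, whose protein binds no zinc and lacks enzyme activity, took 71.9% in WT replicate 2 and 54.8% in Rag1KO replicate 3, but 0.174% in WT replicate 6. Car6, which encodes a secreted enzyme, took 50.2% in WT replicate 6 and at most 9.86% elsewhere. Setting aside Car8, Car10 and Car11, whose products are inactive, Car13 made up 41.1% to 82.1% of what remained, and Car5b, encoding a mitochondrial enzyme, 1.93% to 33.7%. In WT replicate 6 Car6, at 55.9%, exceeded Car13, at 41.1%. These shares depended on the length used: per length of the longest transcript, Car5b (47.2%) exceeded Car13 (38.7%) in Rag1KO replicate 3. Car2, Car9 and Car12 were each at most 1.06% of the whole family in any line.

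**Figure D3:**
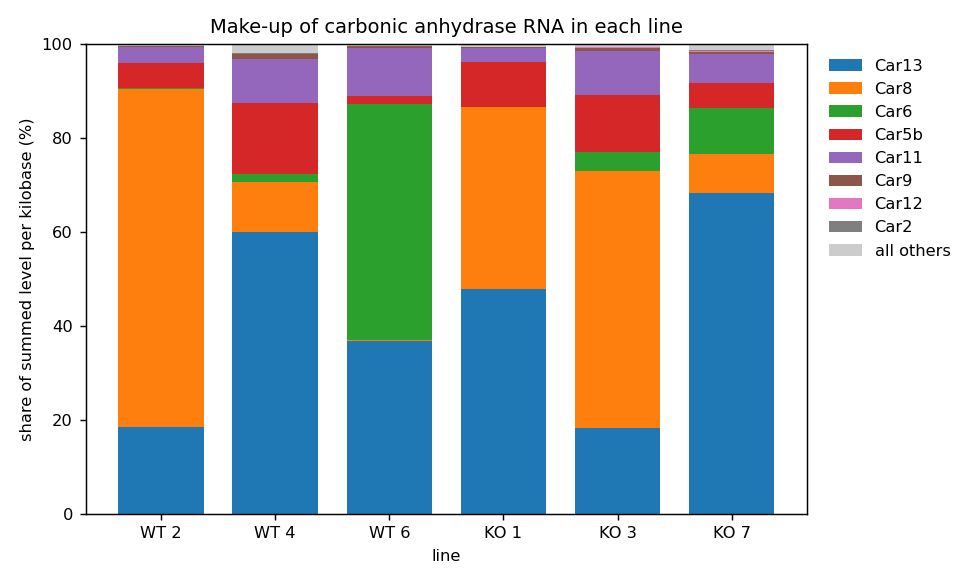
Share (%) of each gene in the summed level per kilobase of 16 carbonic anhydrase family genes, one stacked bar per line (KO, Rag1KO). Car13 spans 18.2% to 68.4%, Car8 is the widest band in WT replicate 2 and Rag1KO replicate 3, Car6 is the widest in WT replicate 6, and the bands of Car9, Car12 and Car2 are barely visible.

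Across all genes, limma on log2(value + 1) called 1 of 16137 at an adjusted p under 0.05, or 0.00620%, and that gene was Eif2s3y. Of the 8 genes 7 entered the fit and 0 passed; 1, Slc4a3, had an unadjusted p under 0.05 in limma, edgeR and DESeq2, as did 4.67%, 4.44% and 6.54% of all genes tested. After adjustment edgeR called 0 of the 7, with 0% of all genes called, and DESeq2 called Slc4a3, with 0.403% of all genes called. The groups did not overlap for 1 of the 7, Slc4a3, or 14.3%, where the share over all genes tested was 12.1% in either direction. With the lines labelled Rag1KO higher, as for Slc4a3, that share was 5.60%. Since Slc4a3 was the reason for the choice, nothing is read from these counts. In limma the log2 difference was negative for 6 of the 7 and positive for Slc4a7, with a median of −0.27 against 0.00 over all genes tested. Car9, at −0.11 with an SE of 0.85, was positive in edgeR and DESeq2, at 0.22 in each. Nothing is read from these directions either.

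The other genes of pH regulation were not what the 8 were chosen on, though their lists too were drawn up with earlier results of these data known. Of 76 such genes in 7 lists 44 passed the filter on low counts, and 0 of these passed limma's or edgeR's adjusted threshold or that of DESeq2. At an unadjusted p under 0.05 there were 4 in limma and in edgeR and 5 in DESeq2; the shares of all genes tested at that level were 4.67%, 4.44% and 6.54%. Groups did not overlap for 6 of the 44, 3 in each direction, or 13.6%, where the share over all genes was 12.1%. The median log2 difference was 0.00, 22 genes being higher in each group. As a set of counts these genes were thus close to the background. The adjusted p in limma was between 0.850 and 0.999 for the 44 genes, and so for each gene named below.

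Among the other bicarbonate transporters 3 of 11 genes were tested. Slc26a6, which encodes a chloride-bicarbonate exchanger of another family, was read at 203, 216 and 149 normalized counts in the WT-labelled lines and at 358, 329 and 367 in the Rag1KO-labelled lines. All lines labelled Rag1KO lay above all lines labelled WT, as for Slc4a3. The means were 189 ± 35.9 and 352 ± 20.0 normalized counts (SD, n = 3), and the log2 difference was −0.91 (SE 0.30, limma's adjusted p = 0.850). Slc4a11, a proton transporter of the Slc4 family, was at 508 ± 308 and 318 ± 102 normalized counts. Its log2 difference of 0.53 (SE 0.56) was 0.08 without WT replicate 6 and 1.02 without WT replicate 4.

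Sodium-proton exchangers export acid in return for sodium, and 9 of 16 genes in that list were tested, 6 of them with a lower mean in lines labelled WT. Slc9a7, an exchanger of the trans-Golgi network, had 5, 0 and 0 reads in the WT-labelled lines and 12, 69 and 41 reads in the Rag1KO-labelled lines, with a log2 difference of −4.25 and an SE of 1.06. Slc9a7 had 0 reads in 2 lines, so this value moved with the pseudocount, to −6.49 at 0.1.

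Of 12 other carbonic anhydrase genes 6 were tested. Car8 was at 9377, 539 and 14.96 normalized counts in the WT-labelled lines and at 3532, 3879 and 666 in the Rag1KO-labelled lines, a 627-fold range between lines of 1 label. Its log2 difference of −2.27 (SE 2.29) was 0.11 without WT replicate 6, −4.49 without WT replicate 2 and 0.28 in edgeR. Car5b was at 885 ± 556 and 1187 ± 405 normalized counts (SD, n = 3), with WT replicate 6 lowest at 246, and its log2 difference of −0.68 (SE 0.70) was 0.088 without that line and −1.09 without WT replicate 4.

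Lactate leaves cells together with protons through monocarboxylate transporters, and 4 of 6 genes of that list were tested. Slc16a1, encoding MCT1, was at 1136, 2735 and 6886 normalized counts in the WT-labelled lines and at 1732, 601 and 1732 in the Rag1KO-labelled lines, a log2 difference of 1.19 with an SE of 0.76, which ran from 0.53 without WT replicate 6 to 1.83 without WT replicate 2. Emb, a chaperone that brings such transporters to the membrane, was at 576 ± 512 and 3880.1 ± 4199 normalized counts (SD, n = 3), from 25.5 in WT replicate 6 to 8457 in Rag1KO replicate 3. Its log2 difference of −2.72 (SE 1.90) was −1.06 without WT replicate 6, −1.58 without Rag1KO replicate 3 and −4.25 without Rag1KO replicate 1.

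Proton sensors and channels had 5 of 12 genes tested, and 2 of them had separated groups with the lines labelled WT higher, where 6.49% of all genes tested did. Tmem206, the acid-activated chloride channel, was read at 757, 883 and 1545 normalized counts in the WT-labelled lines and at 444, 628 and 552 in the Rag1KO-labelled lines. Its log2 difference was 0.91 with an SE of 0.34, and 0.61 without WT replicate 6. Asic1, an acid-sensing sodium channel, was at 247 ± 117 and 90.6 ± 73.0 normalized counts (SD, n = 3), a log2 difference of 1.83 with an SE of 0.89 that was 0.91 without Rag1KO replicate 7.

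Among 8 regulators of bicarbonate transporters 6 were tested. Oxsr1, a kinase of the WNK pathway, was at 3419 ± 742 and 2697 ± 148 normalized counts (SD, n = 3), with a log2 difference of 0.32 (SE 0.21) that was 0.16 without WT replicate 6. Wnk4, a kinase upstream of it, was at 251 ± 225 and 449 ± 143 normalized counts, with WT replicate 6 lowest at 20.2, and its log2 difference of −1.66 (SE 1.17) was −0.30 without that line, −2.54 without WT replicate 4 and −0.85 in edgeR and DESeq2.

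All 11 HIF target genes listed beside Car9 were tested, 8 of them with a higher mean log2 level in lines labelled WT, with a median log2 difference of 0.19. Egln3, an oxygen-sensing prolyl hydroxylase, was read at 271, 711 and 4520.3 normalized counts in the WT-labelled lines and at 108, 302 and 101 in the Rag1KO-labelled lines. The groups overlapped at WT replicate 2 and Rag1KO replicate 3, and the log2 difference of 2.67 (SE 1.09) was 1.55 without WT replicate 6. Ankrd37 was at 101, 235 and 119 normalized counts against 90.1, 67.2 and 91.1, with separated groups and a log2 difference of 0.78 (SE 0.46) that was 0.41 without WT replicate 4. Car9, at 4 to 33 reads, was lowest in WT replicate 2 and highest in WT replicate 4. Ankrd37 was also highest in WT replicate 4, while Egln3 was highest in WT replicate 6. Pdk1, of the same list, had the same lowest and highest lines as Car9, at 1513 and 3801 normalized counts. Likeness of Car9 to the list as a whole was not tested. Ankrd37 overlaps exons of Ufsp2 on the other strand, which was read at up to 2760 normalized counts.

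**Figure D4:**
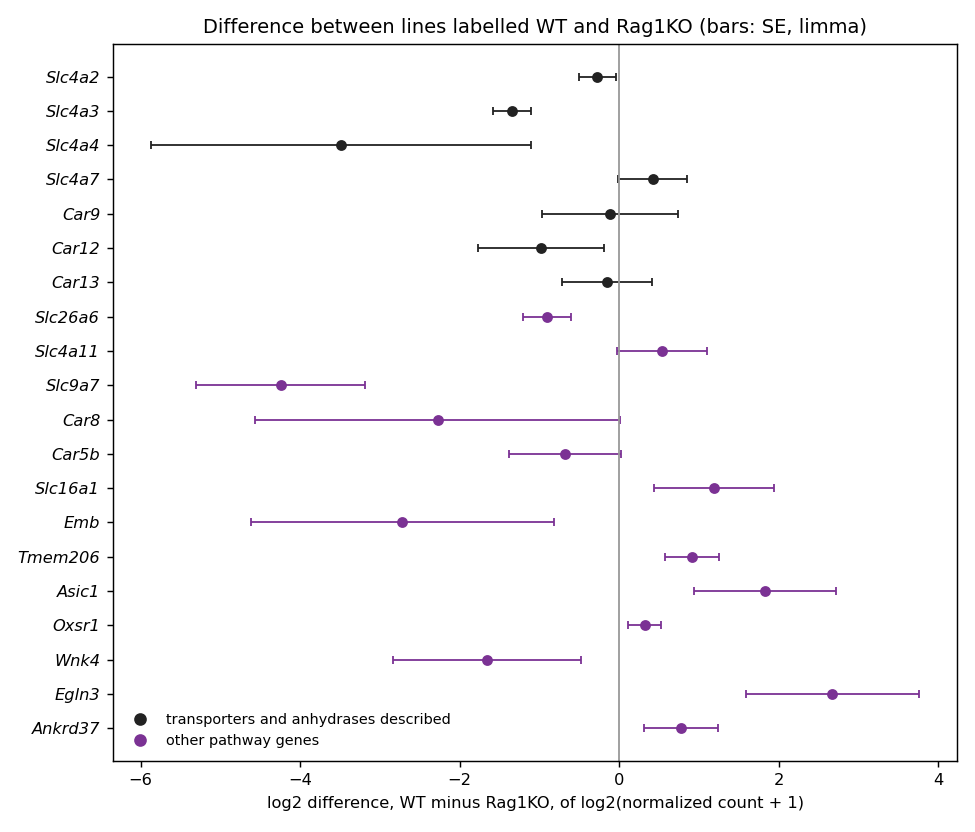
Log2 difference between lines labelled WT and Rag1KO with its SE in limma (bars, n = 3 per group), black for the 7 tested genes chosen by name and purple for the genes named from the 7 other lists. Slc4a3 lies at −1.34 with an SE of 0.23, and the bar of Slc4a4 is the longest, with an SE of 2.38.

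The genes whose pattern over the 6 lines lay nearest to that of Slc4a3 were sought among 11913 tested genes by the root mean square difference of log2 values, each gene centred on its own mean. In order they were Amt, a subunit of the glycine cleavage system, the kinase gene Alpk1, Nipal3, Tbc1d23 and Slc26a6. Amt differed from Slc4a3 by 0.14 in this measure and Slc26a6 by 0.26. Amt was read at 93.7, 101 and 83.6 normalized counts in the WT-labelled lines and at 244, 213 and 224 in the Rag1KO-labelled lines. Alpk1 was at 353 ± 112 and 942 ± 194 normalized counts (SD, n = 3), Nipal3 at 44.9 ± 9.44 and 102 ± 5.21, and Tbc1d23 at 1507 ± 296 and 2930 ± 249. All 5 had separated groups with the lines labelled Rag1KO higher. Likeness to Slc4a3 brings that separation with it, so it is a description with no test. Slc26a6 was the 1 gene of the pH lists among these 5.

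**Figure D5:**
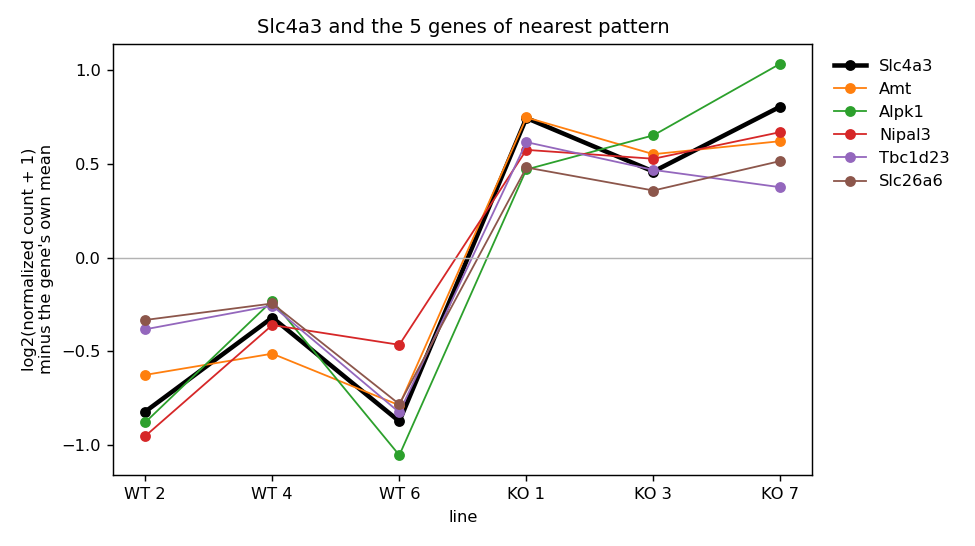
Log2(normalized count + 1) minus each gene's own mean, by line (KO, Rag1KO), for Slc4a3 (black) and the 5 genes of nearest pattern; lines join points of 1 gene and imply no order of lines. All 6 genes lie below 0 in the 3 lines labelled WT and above 0 in the 3 labelled Rag1KO.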

How the data were processed

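RNA from 6 lines was sequenced with Illumina's stranded TruSeq kit, per the labels' protocols, and the authors deposited a signal for every gene. STAR 2.7.9a, Trim Galore 0.6.6, DESeq2, FastQC and build mm10 are named without roles, per the submitters' processing notes. The read counter and annotation are not given in the sources used here. Every signal value deposited by the authors was a whole number of reads (within 0.01) divided by a library size factor equal to the median-of-ratios factor, so 100% of values gave whole reads. The limit set by 0 reads is that of 3 reads.

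Genes were kept by edgeR's filterByExpr (16137 genes), and limma 3.58.1 with a mean-variance trend was fitted to log2(value + 1) of all 6 libraries, two-sided, with Benjamini-Hochberg adjustment over all genes and a threshold of 0.05. Alternatives were edgeR 4.0.16 (quasi-likelihood, TMM), DESeq2 1.42.0, other scalings, filters and pseudocount, and leaving out each library. The planned test for raw counts, edgeR, became an alternative because the files hold normalized values. The limma fit was also run on simulated counts with large built-in changes and less spread, which does not show what it can detect in these lines. Lengths and coordinates are from GENCODE M21 (55141 of 55401 identifiers matched, 6 of the 8 genes in the same version) and sequences from RefSeq on GRCm38.p6. Genes and lists were chosen with earlier results of these data known. Named are the 8 genes, the 2 genes of lowest p in each list (1 of these is not reported here), the 5 nearest to Slc4a3, Rag1 and sex-linked genes, and any other gene was chosen after its values were seen.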

Additional observations from a re-analysis of the deposited data

How the results depend on the processing

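No paired analysis was possible because the groups share no replicate number. Over all genes limma called 1, edgeR 0 and DESeq2 65, and leaving out 1 library gave 0 to 5, the 5 without WT replicate 6. Of the 8 genes, DESeq2 called 1, Slc4a3, and every other alternative called 0; the count for the 44 other pH genes was 0 in every alternative. Of 89 log2 differences of the 7 tested genes under alternatives, none moved by more than the SD within groups. Leaving out 1 of the 3 lines of a group cannot move a difference that far, so for those fits this was fixed in advance. For genes of wide spread the SD was also a loose limit: Slc4a4 went from −3.48 to −5.77 without WT replicate 4. Of the 89, 5 of those for Car9 and 2 of those for Car13 had the other sign: Car9 ran from −0.62 to 0.73 and Car13 from −0.80 to 0.26. Of 181 for the other pH genes chosen by the same rule 4 turned direction: Car8, from −2.27 to 0.28 in edgeR, 0.29 in DESeq2 and 0.11 without WT replicate 6, and Car5b, from −0.68 to 0.088 without WT replicate 6. Leaving out each line gave −4.49 to 0.11 for Car8 and −1.09 to 0.088 for Car5b. The cause was not tested. Per length of the longest transcript, levels per kilobase were 2339 for Slc4a2, 288 for Slc4a7 and 6.28 for Car12. A filter of 1 CPM in 3 libraries left Car9, Car12 and Slc9a7 without a value. With a median SE of 0.40 over all genes and 3 lines a group, small differences were not detectable. Large ones could also fail to pass in limma: Rag1, with 0 reads in all lines labelled WT, had a log2 difference of −6.60 and limma's adjusted p = 0.338. This depended on the tool, the adjusted p for Rag1 being 0.891 in edgeR and 1.8e-06 in DESeq2.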

Other observations

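A few transporter and channel genes were highest in WT replicate 6 by a wide margin; they were picked out after their values were seen. The epithelial marker list had its lowest sum in that line, 10.6 normalized counts, the sums elsewhere coming mostly from Krt19. Not all its members were lowest there: Cdh1 and Krt8 were at 8.80 and 0.88, against 4.63 and 0 in Rag1KO replicate 3. The part of cell type in the levels below was not tested. Slc9a2, the sodium-proton exchanger NHE2, was at 267 normalized counts in WT replicate 6 and at 5.75 or less in the other 5 lines. Slc26a7, an anion exchanger, was at 105 against 15.5 or less, and Cftr, the chloride and bicarbonate channel mutated in cystic fibrosis, was at 35.2 and had at most 1 read elsewhere. The secreted carbonic anhydrase gene Car6 was at 2030.0 against 381 or less. In the same line Slc4a4 had 0 reads, and Slc16a3, encoding the lactate exporter MCT4, and Adm, encoding adrenomedullin, had 1 read each.

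Slc16a3 was also far higher in 1 line, chosen after its values were seen: it stood at 3088 normalized counts in Rag1KO replicate 3 and between 0.88 and 105 in the other 5 lines. Amt and Slc26a6, both among the 5 genes nearest in pattern to Slc4a3, lie 551 kilobases apart on chromosome 9, which is given as a position only.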
